A study of Mus musculus with 8 samples.

Results

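KRAB zinc finger genes lie in tandem arrays, and 3 of these arrays in mouse embryonic stem (ES) cells were examined for trimethylation of lysine 9 on histone H3 (H3K9me3), before and after *Setdb1* was inactivated. The arrays were chr2:175000001-177700000, chr4:145000001-147000000 and chr13:67000001-68200000 of mm9, of 2.7, 2.0 and 1.2 Mb. They were cut into 5-kb windows, and a tag (the 300-bp interval of 1 sequenced fragment) was given to the window that held its midpoint. Of the 1180 windows of the arrays, 701 held a tag in at least 1 of the 8 libraries and were kept, 181 on chromosome 2, 295 on chromosome 4 and 225 on chromosome 13, out of 505161 such windows in the genome. The other 479 windows held no tag in any library and were left out.

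KRAB zinc finger proteins bind DNA through arrays of zinc fingers, many of them at transposable elements, and recruit the corepressor Kap1 (Trim28) through the KRAB domain. Kap1 in turn recruits Setdb1, a methyltransferase that places H3K9me3. The genes of this family are themselves known to carry H3K9me3, in many cell types most strongly over the exons that encode the fingers. Because the arrays grew by duplication, neighbouring genes can be close copies of each other, and a short read from a copy cannot always be placed.

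The cells were JM8 ES cells of the C57BL/6N strain, and all the groups carried a CreERT2 cassette at *Rosa26*, expressed in all cells. The *T* = 0 group was untreated and, in the study's nomenclature, *Setdb1* tm1c/tm2, that is, with 1 conditional allele and 1 allele inactivated by insertion of a vector with a hygromycin and GFP cassette, which may leave a truncated product. The *T* = 2d, *T* = 4d and *T* = 6d groups received 0.8 µM 4-hydroxytamoxifen (4′OHT) for 48 h and were collected 2, 4 and 6 days after its start, as tm1d/tm2 cells with no functional allele. The sample labels call the same genotypes tm1a/tm2 and tm1c/tm2. The lines were clonal, and control lines with 1 wild-type allele and input DNA were not analysed here, so that an effect of 4′OHT or of time in culture cannot be told apart from the loss of *Setdb1*. An antibody similar to one sold by Upstate (called Upstate-type here) was used at all 4 time points, and 2 lots of an Abcam antibody (58206 and 638466) at *T* = 0 and *T* = 6d. Each antibody and time point had 1 library, the libraries of an antibody had equal totals (6887819, 8503927 and 12194174 tags), and the antibodies stood in for replicates without being biological replicates.

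A window of the genome held a median of 8 to 9 tags with the Upstate-type antibody, 15 to 16 with lot 58206 and 24 to 25 with lot 638466. The antibodies separated high from low windows to different degrees: windows with at least 3 times their library's median count held 36.7 to 45.3% of the tags with the Upstate-type antibody, 4.62 to 11.4% with lot 58206 and 0.234 to 0.674% with lot 638466. Tests on tags were Fisher's exact tests, 2-sided, on the tags of 2 libraries. They compare these libraries, cover counting error only, and a call needed both *P* below 0.01 and more than a 1.5-fold change. The deletion of *Setdb1* cannot be checked from these tags.

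The share of each array that could be read differed widely. The 3 Mb on each side of an array served as its flanks. On chromosome 2, 33.5% of the windows and 16.1% of the bases were mappable (434 kb), with stretches of 500 bp or more without a tag midpoint in the pooled libraries taken as unmappable, and only 32 windows had 4 kb or more. On chromosome 4 the shares were 73.8% and 47.7% (954 kb, 141 windows), and on chromosome 13 they were 93.8% and 86.3% (1036 kb, 196 windows). In the flanks, 60.2 to 97.4% of the bases were mappable, with the lowest share on the left of the chromosome 13 array, and in the genome 89.5%.

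The likeness of the gene copies was seen in the sequence before their starts. RefSeq (GRCm38.p6, a later build than the mm9 of the tags) was used for names and order only, and lists 32 protein-coding genes between *Edn3* and *Phactr3* on chromosome 2, 19 between *Tnfrsf8* and *Miip* on chromosome 4 and 27 between *Ptdss1* and *Mtrr* on chromosome 13. Of these, 9, 16 and 23 have a *Zfp* symbol, and which of them lie inside the mm9 limits was not determined. The 100 bases before the start were found for 31, 14 and 24 genes, and each gene was compared, base by base and without gaps, with every other gene of its array. On chromosome 2, 13 of 31 genes (41.9%) had a partner with 90 or more identical bases, and 8 had an identical one. On chromosome 4 it was 4 of 14 (28.6%), and on chromosome 13 it was 2 of 24 (8.33%), in the reverse order of the mappable share. The closest pair of *Zfp* genes in each array (on chromosome 2, 1 of those that were identical) is shown here 5′ to 3′, ending at the base before the start, with the bases that differ within the pair in capitals. *Zfp966* (chr2:175931101-175931200, minus strand) and *Zfp967* (chr2:176520904-176521003, plus strand) were identical, so that no read within these bases can be placed on either of them alone. *Zfp979* (chr4:147642509-147642608, minus strand) and *Zfp980* (chr4:145670597-145670696, plus strand) differed at 10 bases, and *Zfp712* (chr13:67061171-67061270, minus strand) and *Zfp738* (chr13:67683513-67683612, minus strand) at 39, all positions of GRCm38.p6.
Zfp966: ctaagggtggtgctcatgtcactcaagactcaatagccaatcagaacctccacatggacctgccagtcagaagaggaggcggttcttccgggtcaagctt
Zfp967: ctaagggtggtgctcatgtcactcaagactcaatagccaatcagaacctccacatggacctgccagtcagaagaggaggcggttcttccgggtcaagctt
Zfp979: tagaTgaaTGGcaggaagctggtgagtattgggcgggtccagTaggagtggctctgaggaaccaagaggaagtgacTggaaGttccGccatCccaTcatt
Zfp980: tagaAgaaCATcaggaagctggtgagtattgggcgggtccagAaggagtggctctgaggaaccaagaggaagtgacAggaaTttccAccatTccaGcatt
Zfp712: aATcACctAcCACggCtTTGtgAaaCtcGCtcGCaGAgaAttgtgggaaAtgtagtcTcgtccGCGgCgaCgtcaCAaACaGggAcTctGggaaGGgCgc
Zfp738: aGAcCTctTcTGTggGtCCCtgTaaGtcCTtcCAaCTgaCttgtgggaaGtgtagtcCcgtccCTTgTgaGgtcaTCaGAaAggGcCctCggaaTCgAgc

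Before the loss of *Setdb1*, H3K9me3 per mappable kb was high over the chromosome 4 array, moderate over chromosome 13 and low over chromosome 2. Levels are tags per mappable kb, relative to the same quantity over the genome. At *T* = 0 the chromosome 4 array stood at 2.48 with the Upstate-type antibody (95% interval of the count, 2.42 to 2.53), 1.60 with lot 58206 and 1.35 with lot 638466. The chromosome 13 array stood at 1.51, 1.11 and 0.960, so that it was above the genome with the first 2 antibodies and just below it with the third. The chromosome 2 array stood at 0.831, 0.539 and 0.464, below the genome with every antibody. In its 32 windows with 4 kb or more mappable, however, the Upstate-type median was 13 tags, against 10 in such windows of its flanks. With lots 58206 and 638466 these medians were 9.5 against 19 and 13 against 33, so the low level there depended on the antibody. Windows that are mappable only in part still count whole stretches between tags as mappable, so the values for chromosome 2 and 4 may be too low.

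Against the flanks, the order of the arrays depended on how unmappable sequence was counted. Per mapped window, the array over its flanks at *T* = 0 averaged 0.277 ± 0.123 (SD, n = 3 antibodies) on chromosome 2, 0.994 ± 0.232 on chromosome 4 and 1.36 ± 0.352 on chromosome 13. Per mappable kb the same ratios were 0.556 ± 0.247, 1.46 ± 0.340 and 1.22 ± 0.317. The chromosome 2 array was below its flanks on either scale, although not by the Upstate-type median of well-mappable windows given above. Chromosome 4 changed from level with its flanks to above them. The right flank of chromosome 4 was itself above the genome before treatment (1.75, 1.23 and 1.34 times per mappable kb).

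**Figure D1:**
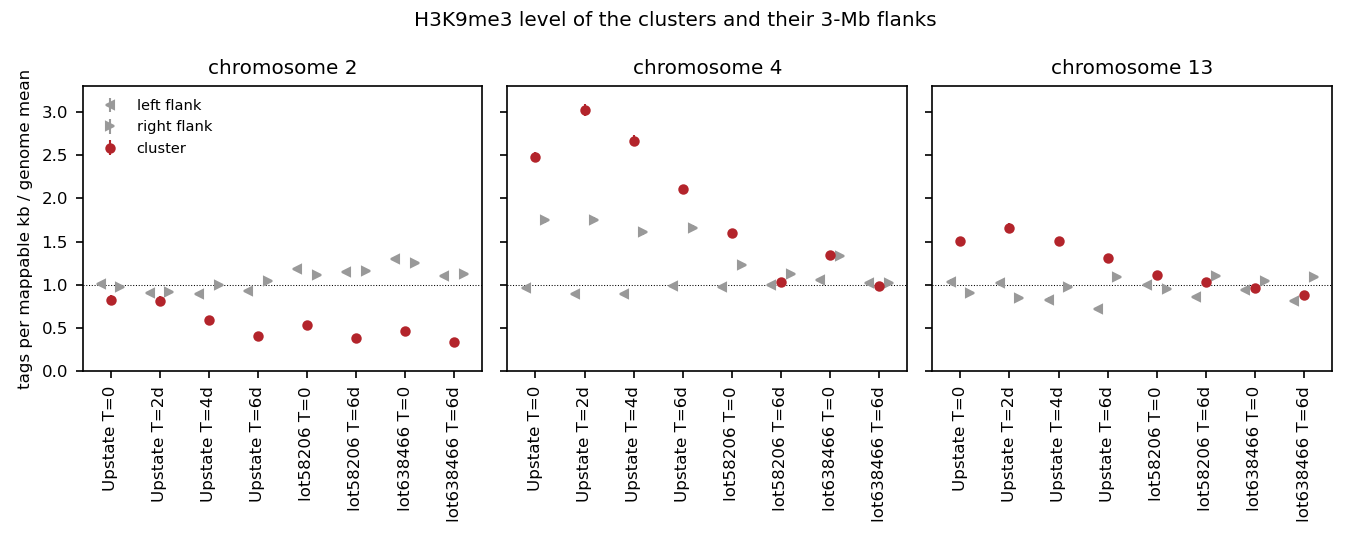
H3K9me3 level (tags per mappable kb over the genome mean, vertical axis) of each array (red circles) and of its left and right 3-Mb flanks (grey triangles) in the 8 libraries (horizontal axis), with 95% intervals of the counts. With the Upstate-type antibody the chromosome 4 array lies between 2.10 and 3.02, and the chromosome 2 array is at 0.831 or below in every library.

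Tags were spread unevenly within the arrays. The tenth of the mapped windows with the most tags held 43.8, 38.6 and 38.2% of the tags at *T* = 0 with the Upstate-type antibody, lot 58206 and lot 638466 on chromosome 2 (18 windows), 42.1, 40.5 and 40.7% on chromosome 4 (30 windows) and 27.4, 21.1 and 18.0% on chromosome 13 (22 windows). Mapped windows have unequal mappable length, above all on chromosomes 2 and 4, and its part in these shares was not tested. Among windows with 4 kb or more mappable, the tags at *T* = 0 of the Upstate-type antibody ran from 0 over a median of 33 to 233 on chromosome 4, from 2 over 17 to 96 on chromosome 13 and from 3 over 13 to 58 on chromosome 2. In 100-kb stretches the chromosome 4 array had 2 high parts, from 600 and 700 kb after its start (4.69 and 3.95 times the genome at *T* = 0) and from 1700 and 1800 kb (3.41 and 4.46 times). The chromosome 13 array was highest in its first 100 kb (2.87 times), and most of the chromosome 2 array had no value because under 20 kb of a stretch was mappable.

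**Figure D2:**
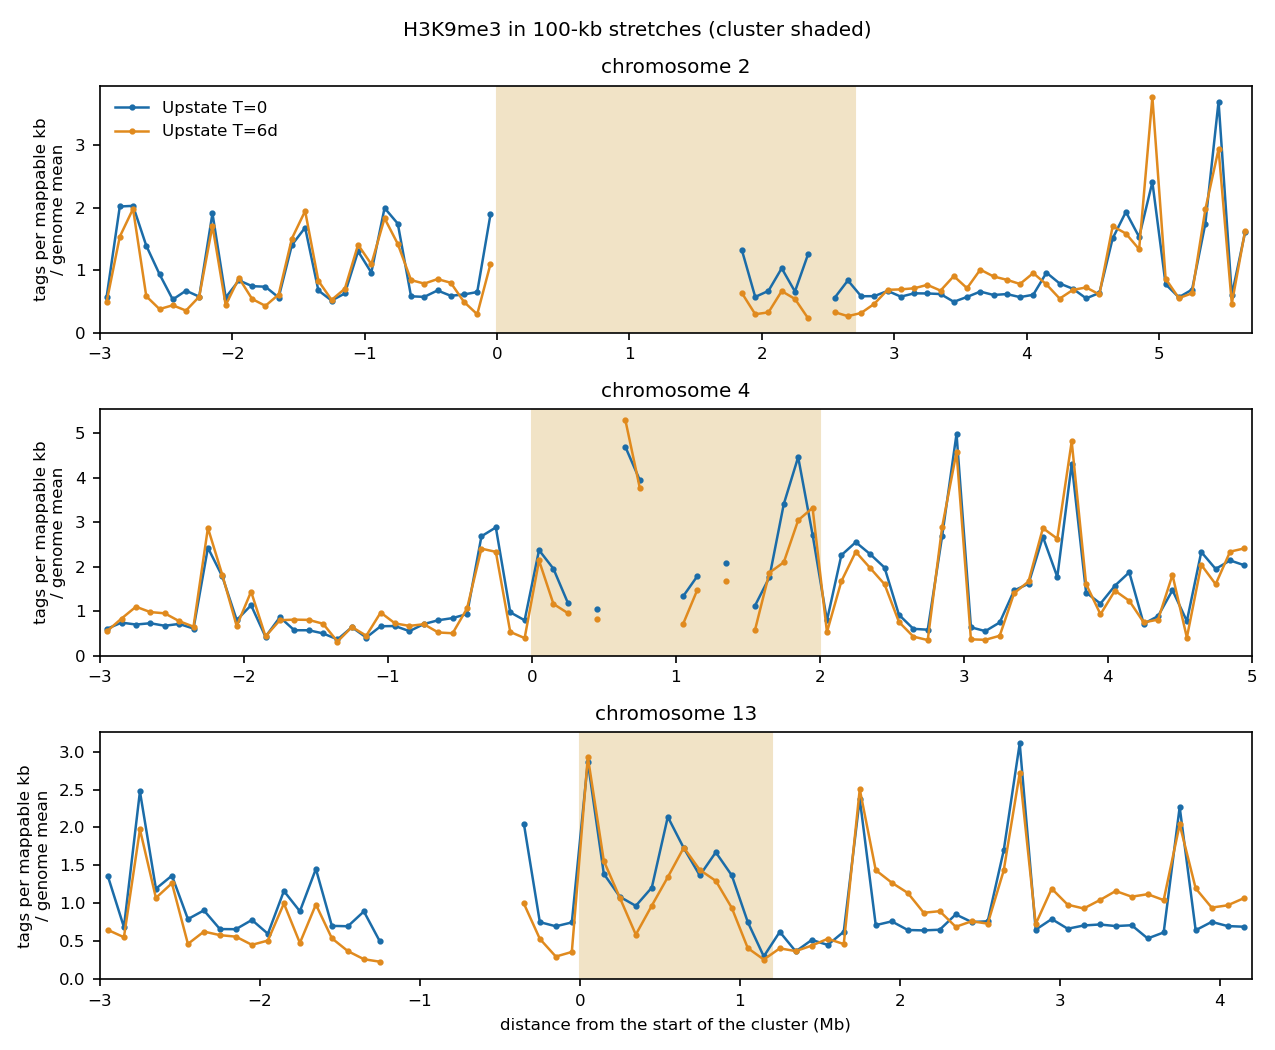
H3K9me3 with the Upstate-type antibody in 100-kb stretches (tags per mappable kb over the genome mean, vertical axis) by distance from the start of each array (Mb, horizontal axis), at *T* = 0 (blue) and *T* = 6d (orange), with the array shaded and stretches under 20 mappable kb left blank. On chromosome 4 the part at 1800 kb fell from 4.46 to 3.04 while the part at 600 kb stood at 4.69 and 5.29. With the Abcam lots, not drawn here, the part at 600 kb fell from 2.52 to 1.53 (lot 58206) and from 1.89 to 1.39 (lot 638466).

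The Upstate-type antibody and the Abcam lots were correlated over the windows of chromosome 4 and little correlated over those of chromosome 13. Over windows with 4 kb or more mappable, the tags at *T* = 0 of the Upstate-type antibody correlated with those of lot 58206 with Pearson's r = 0.75 on chromosome 4 (141 windows), 0.499 on chromosome 2 (32 windows) and 0.0982 on chromosome 13 (196 windows). With lot 638466 r was 0.719, 0.602 and 0.187, and between the Abcam lots it was 0.934, 0.877 and 0.55. On chromosome 13 only 3 and 0 windows reached 3 times the median at *T* = 0 with lots 58206 and 638466. The part of this narrow range in the low r was not tested. Neighbouring windows and windows of unequal mappable length are not independent, and these values are descriptions. A window that shows the difference is chr13:67640001-67645000, with 96, 121, 105 and 96 tags at the 4 time points with the Upstate-type antibody but 10 and 13 tags with lot 58206 and 17 and 20 with lot 638466, below the genome median of these lots.

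At 6 days after the start of 4′OHT all 3 arrays had fewer tags than at *T* = 0 with every antibody. The chromosome 2 array fell most with the Upstate-type antibody, from 1052 tags to 515, a ratio of 0.49 (95% interval 0.44 to 0.545, Fisher's exact *P* = 1.37e-42). With lot 58206 it had 842 and 600 tags (0.713, 0.641 to 0.792) and with lot 638466 1040 and 755 (0.726, 0.66 to 0.798). The chromosome 4 array fell most with lot 58206, from 5508 to 3534 tags (0.642, 0.615 to 0.669, Fisher's exact *P* = 1.96e-96), against 6661 and 4881 with lot 638466 (0.733, 0.706 to 0.761) and 6889 and 5854 with the Upstate-type antibody (0.85, 0.821 to 0.88). The chromosome 13 array changed least, with 4547 and 3968, 4148 and 3845, and 5135 and 4739 tags (0.873, 0.927 and 0.923). All 9 ratios had intervals below 1, but only the values for chromosome 2 with the Upstate-type antibody and for chromosome 4 with lot 58206 passed the 1.5-fold limit. The mean log2 changes over the antibodies were -0.66 ± 0.32 (SD, n = 3) on chromosome 2, -0.44 ± 0.20 on chromosome 4 and -0.14 ± 0.05 on chromosome 13, with an exact sign-change permutation *P* of 0.25 for each, 2-sided, the smallest that 3 antibodies allow.

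The arrays of chromosomes 2 and 4 had odds ratios below 1 against their 3-Mb flanks at *T* = 6d with every antibody, and on chromosome 13 the 2 flanks went opposite ways. The tags of both flanks together changed by a mean log2 of -0.06 ± 0.11 (SD, n = 3 antibodies) on chromosome 2, -0.11 ± 0.11 on chromosome 4 and 0.00 ± 0.05 on chromosome 13. The change of the array against its flanks, as an odds ratio, was 0.493 (0.443 to 0.549), 0.707 and 0.831 on chromosome 2 with the Upstate-type antibody, lot 58206 and lot 638466, 0.869, 0.671 and 0.861 on chromosome 4 and 0.882, 0.893 and 0.942 on chromosome 13, and of these 9 the first alone passed the 1.5-fold limit (adjusted *P* = 3.59e-39 over 15 Fisher's exact tests). With flanks of 1 Mb the odds ratio of chromosome 4 with the Upstate-type antibody was 0.985 (Fisher's exact *P* = 0.53), and in windows with 4 kb or more mappable that of chromosome 2 with lot 638466 was 0.934 (Fisher's exact *P* = 0.339), so neither difference was shown under that choice. On chromosome 13 the left flank had 0.691 times and the right flank 1.21 times its *T* = 0 tags at *T* = 6d with the Upstate-type antibody, and the left flank 0.857 and 0.867 times with the Abcam lots against 1.16 and 1.04 times on the right. Set against the left flank alone the chromosome 13 array was higher at *T* = 6d (odds ratios 1.26, 1.08 and 1.06), so its direction against its surroundings depends on the side.

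**Figure D3:**
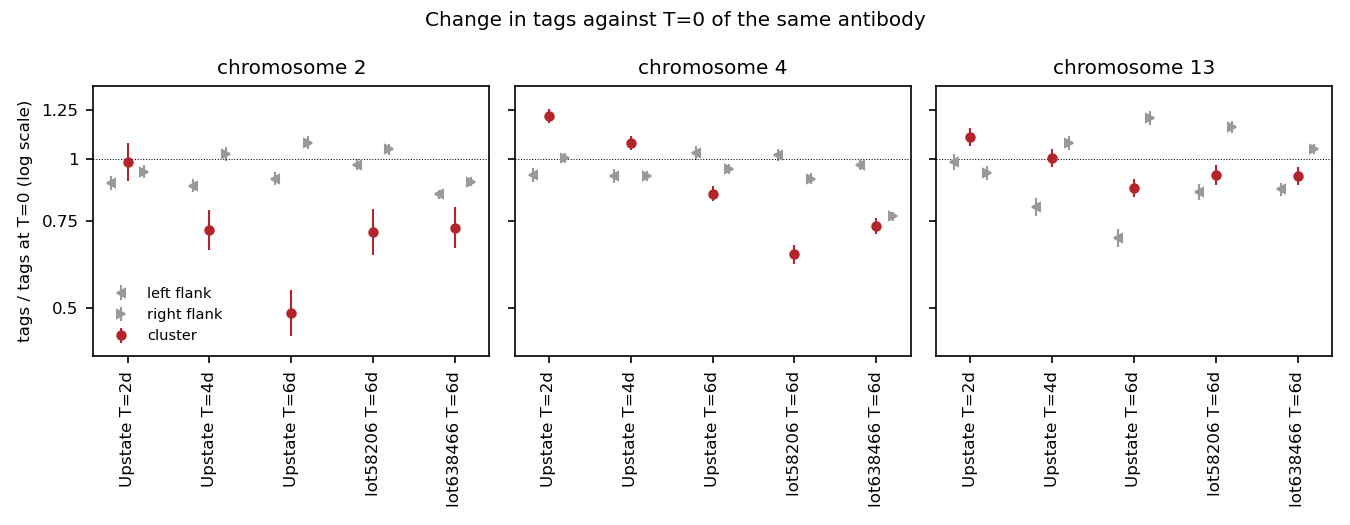
Tags divided by the tags at *T* = 0 of the same antibody (log scale, vertical axis) for each array (red circles) and its left and right flanks (grey triangles), with exact 95% intervals of the counts, in the 5 comparisons (horizontal axis). At *T* = 6d the chromosome 2 array is at 0.49 with the Upstate-type antibody and at 0.713 and 0.726 with the Abcam lots, and the chromosome 13 array lies between its flanks with every antibody.

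With the Upstate-type antibody the arrays did not fall steadily. At *T* = 2d the chromosome 4 array had 8406 tags, 1.22 times those at *T* = 0 (1.18 to 1.26, Fisher's exact *P* = 1.23e-34), and the chromosome 13 array had 5026, 1.11 times (1.06 to 1.15, *P* = 1.02e-06). The chromosome 2 array had 1035 tags (0.984, 0.902 to 1.07). Between *T* = 2d and *T* = 4d all 3 arrays fell, to 756 tags on chromosome 2 (0.73 times *T* = 2d), 7420 on chromosome 4 (0.883) and 4563 on chromosome 13 (0.908), and between *T* = 4d and *T* = 6d they fell again, by ratios of 0.681, 0.789 and 0.87. All 6 of these later steps had adjusted *P* values of 2.65e-06 or less over 9 Fisher's exact tests. In the flanks of chromosomes 4 and 13 the tags at *T* = 2d were 0.977 and 0.956 times those at *T* = 0. The *T* = 2d library also held, of the 4 Upstate-type libraries, the largest share of tags in windows with at least 3 times its median, 45.3% against 38.0% at *T* = 0, so the arrays' rise moved with the contrast of that library, and the part of the contrast in it was not tested. No Abcam library was made at *T* = 2d or *T* = 4d.

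The arrays differed from each other in how much they lost. With the Upstate-type antibody at *T* = 6d, chromosome 2 fell more than chromosome 4 (odds ratio 0.576, 0.516 to 0.644) and more than chromosome 13 (0.561, 0.501 to 0.629), and both passed the 1.5-fold limit by Fisher's exact test. With the Abcam lots the odds ratio of chromosome 2 to chromosome 4 was 1.11 (0.992 to 1.24) for lot 58206 and 0.991 (0.896 to 1.1) for lot 638466, so a difference between these 2 arrays was not shown with those lots. Chromosome 4 fell more than chromosome 13 with both Abcam lots (0.692, 0.651 to 0.736, and 0.794, 0.752 to 0.838) and not measurably more with the Upstate-type antibody (0.974, 0.922 to 1.03).

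Among single windows, falls were more frequent in the arrays than in the genome, and rises were too at *T* = 2d and *T* = 4d. Over all mapped windows and the Upstate-type antibody, 10 of the 701 members (1.43%) were called lower at *T* = 2d against 0.792% of the genome, 37 (5.28%) at *T* = 4d against 2.08%, and 59 (8.42%) at *T* = 6d against 3.08%. In the other direction 29 (4.14%) were called higher at *T* = 2d against 0.800% of the genome, 26 (3.71%) at *T* = 4d against 1.06% and 16 (2.28%) at *T* = 6d against 1.96%. Of the 29 higher windows at *T* = 2d, 22 were on chromosome 4, 7 on chromosome 13 and 0 on chromosome 2. With lot 58206, 58 members (8.27%) were lower at *T* = 6d against 1.98% of the genome, and 11 (1.57%) were higher against 1.75%. With lot 638466, 38 (5.42%) were lower against 1.93%, and 2 (0.285%) were higher against 1.11%. Chromosome 4 held 30 of the 59, 38 of the 58 and 24 of the 38 lower windows. A window with more tags can be called at a smaller change, so these shares also move with the level of the windows.

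Among windows already enriched with another antibody the picture differed between the 2 ways of choosing. The antibody that chose the windows, the antibody tested and the number of windows changed together, so their parts cannot be told apart. Only 22 members, all on chromosome 4, stood at 3 or more times the median of the pooled *T* = 0 libraries of the Abcam lots. With the Upstate-type antibody 2 of these (9.09%) had fallen by *T* = 2d, 5 (22.7%) by *T* = 4d and 7 (31.8%) by the last day, against 20.8, 44.1 and 50.4% of the 1162 windows of the genome chosen in the same way. Their tags at *T* = 6d summed to 0.637 times those at *T* = 0, against 0.558 times over the genome's windows. The lower share in the arrays depended on the limit: at 2 times the median 15 of 52 members (28.8%) were lower at *T* = 6d against 26.1% of the genome's windows, and in 2-kb windows 18 of 67 (26.9%) against 27.9%. Windows at 3 or more times the *T* = 0 median of the Upstate-type antibody included 158 members, 6 on chromosome 2, 93 on chromosome 4 and 59 on chromosome 13. Of these 40 (25.3%) were lower at *T* = 6d with lot 58206 against 9.29% of the genome's windows so chosen, and 24 (15.2%) with lot 638466 against 8.44%.

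**Figure D4:**
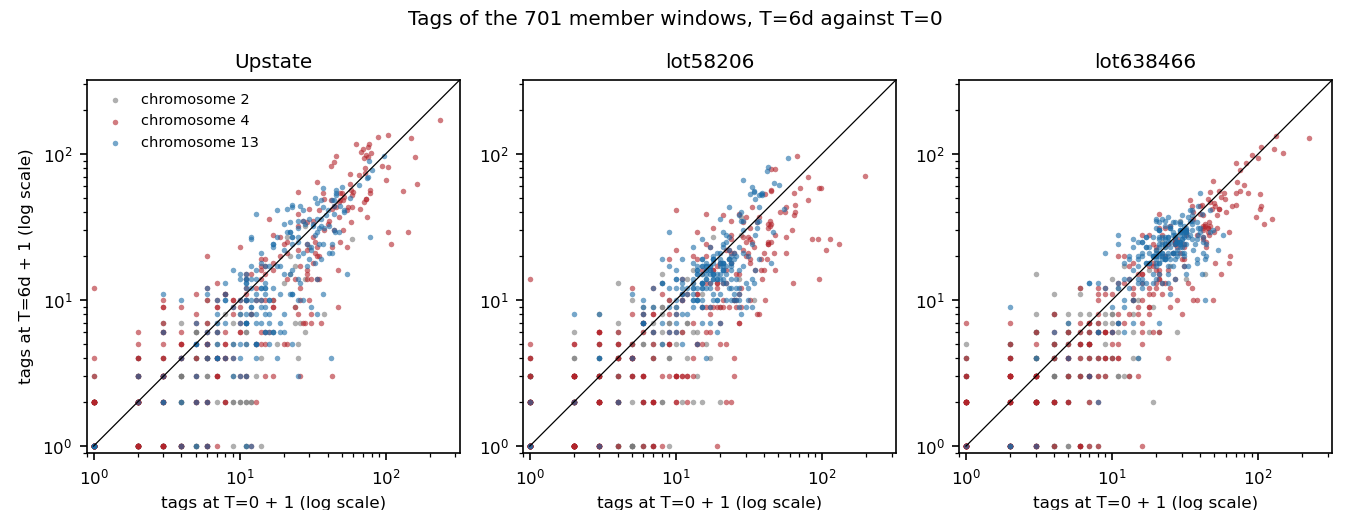
Tags + 1 of each of the 701 windows at *T* = 6d (vertical axis) against *T* = 0 (horizontal axis), both on a log scale, for the Upstate-type antibody and the 2 Abcam lots, with windows of chromosome 2 in grey, chromosome 4 in red, chromosome 13 in blue and the line of equal tags in black. Most of the windows far below the line at high tags are on chromosome 4, and 59, 58 and 38 windows were called lower in the 3 panels.

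On chromosome 4, windows that the Abcam lots marked before treatment lost more of the Upstate-type signal than the others, a split that was made after the data had been seen. The 46 windows at 2 or more times the pooled median of these lots (with 4 kb or more mappable) held 3224, 3802, 3166 and 2560 tags over the time course, and the other 95 held 2773, 3637, 3437 and 2605. At *T* = 6d the marked windows stood at 0.794 times *T* = 0 (0.754 to 0.837) and the others at 0.939 times (0.89 to 0.991), an odds ratio of 0.845 (0.785 to 0.911, Fisher's exact adjusted *P* = 1.57e-05). On chromosome 13 only 6 windows were marked. They held 190, 171, 111 and 90 tags, and all 6 were lower at *T* = 6d, while the other 190 windows stood at 0.9 times and 111 of them were lower. The split was not made over the genome, so it is not shown to be particular to the arrays. At the same limit of 2 times the median, 26.1% of the genome's windows were called lower at *T* = 6d with the Upstate-type antibody, against 28.8% of 52 members.

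Over the 3 antibodies together, 11 windows of the arrays were lower at *T* = 6d and none was higher. limma was fitted to log2(CPM + 0.5), CPM being tags scaled to the library total, with the antibody as a term, over the 42811 windows of the genome that averaged 2 or more times the median, of which 117 were members (1 on chromosome 2, 75 on chromosome 4 and 41 on chromosome 13). This average was taken over the *T* = 0 and *T* = 6d libraries that were tested, so a window could enter through its *T* = 0 tags alone. The called window chr4:146025001-146030000 did so, with 8, 15 and 19 tags at *T* = 6d against genome medians of 9, 15 and 25. Other called windows also averaged under 2 times these medians at *T* = 6d. They were chr4:146840001-146845000 (23, 13 and 32 tags), the largest fall, chr4:145180001-145185000 (36, 11 and 11) and chr13:67830001-67835000 (7, 28 and 27). All windows tested passed the same filter. With an adjusted *P* below 0.05 and a change over 1.5-fold, 11 members (10 on chromosome 4 and 1 on chromosome 13) were lower, against 3.49% of all windows tested, and 0 were higher, against 0.0234% (26 lower and 0 higher at an unadjusted limma *P* below 0.05). The median log2 change was -0.19 over the members tested and -0.12 over all windows tested. Of the members tested 42 (35.9%) had fewer tags at *T* = 6d with every antibody, against 23.0% of all windows tested, and 2 (1.71%) had more, against 4.86%. Without the antibody term 0 members were called lower (2 at an unadjusted limma *P* below 0.05). With 1 antibody left out, 6, 7 and 5 members were called lower (without the Upstate-type antibody, lot 58206 and lot 638466). Of these, 4, 7 and 5 were among the 11.

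Among the members tested by limma, the largest falls were in a single stretch near the end of the chromosome 4 array. The window chr4:146840001-146845000 held 108, 107, 25 and 23 tags at the 4 successive time points with the Upstate-type antibody, 95 and 13 at *T* = 0 and 6d with lot 58206 and 109 and 32 with lot 638466. Its level stayed through *T* = 2d and dropped by *T* = 4d, and the *T* = 6d value was below *T* = 0 with every antibody (log2 change -2.06, SE 0.27, limma adjusted *P* = 0.000167). Its neighbour chr4:146845001-146850000 held 141, 129, 35 and 28 tags, then 130 and 23, and 124 and 35 (log2 change -2.05, SE 0.26, limma adjusted *P* = 0.000159). The same order of times is visible in it. Without the Upstate-type antibody its log2 change was -1.98 and the limma adjusted *P* rose to 0.125.

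The third largest fall among the members tested came earlier. The window chr4:146025001-146030000 held 46, 15, 9 and 8 tags with the Upstate-type antibody, 47 and 15 with lot 58206 and 63 and 19 with lot 638466 (log2 change -1.66, SE 0.28, limma adjusted *P* = 0.0011). At *T* = 2d it was already at 0.326 times *T* = 0. The window chr4:146595001-146600000 averaged under 2 times the median, was not tested by limma and was named after its values had been seen. It held 30, 5, 5 and 6 tags with the Upstate-type antibody, 25 and 9 with lot 58206 and 48 and 9 with lot 638466. Of the 11 windows called lower, 4 stood more than 1.5-fold below *T* = 0 at *T* = 2d. The others of these 4 were chr4:146860001-146865000 (103, 63, 17 and 28 tags), chr4:146790001-146795000 (162, 94, 73 and 61) and chr13:67830001-67835000 (33, 14, 4 and 7). The *T* = 0 library had a part in choosing the 11 windows, which alone can lower such ratios, so they are descriptions. The same share over all windows called lower in the genome was not counted.

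The libraries of *T* = 2d and *T* = 4d had no part in choosing the 11 windows. The windows were, however, chosen for a fall from the first time point to the last, so a fall at a step between is not independent support. How many of all windows called lower in the genome fell at this step was not counted. Between *T* = 2d and *T* = 4d, 5 of the 11 windows fell by over 1.5-fold with an adjusted *P* below 0.01 by Fisher's exact test. These were the first 2 named above (0.234 times, adjusted *P* = 1.54e-12, and 0.271 times, adjusted *P* = 8.19e-13), chr4:146835001-146840000 (140 to 56 tags, 0.4 times), chr4:146860001-146865000 (0.27 times) and chr4:145180001-145185000 (90 to 52 tags, 0.578 times). The last of these is far from the rest, near the start of the array, while the other 4 lie within 30 kb. By contrast chr4:145035001-145040000 held 158, 212, 174 and 94 tags, and 106 and 21, and 102 and 41 with the Abcam lots, so that its Upstate-type signal was above *T* = 0 at *T* = 4d. The window chr4:145730001-145735000 held 77, 90, 61 and 56 tags, with 35 and 7, and 55 and 14.

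Mean level was taken over the first and last time points together, so a window that lost tags was ranked lower. This ranking therefore cannot show whether high windows lost more or less than others. The following windows had the highest mean level, and some of them were called lower. In the chromosome 4 array they were chr4:145660001-145665000 with 233, 301, 239 and 169 tags, and 113 and 25, and 102 and 52 (log2 change -1.12, SE 0.29, limma adjusted *P* = 0.0329), chr4:146790001-146795000 with 162, 94, 73 and 61, and 197 and 70, and 223 and 127 (-1.19, SE 0.26, limma adjusted *P* = 0.00839, but 0.725 without the Upstate-type antibody and 0.12 without lot 638466), and chr4:145740001-145745000 with 148, 177, 157 and 128, and 70 and 57, and 82 and 86. The last of these 3 was near its *T* = 0 level with every antibody (-0.14, SE 0.26, limma adjusted *P* = 0.949). The first had lost less with the Upstate-type antibody (0.725 times) than with lots 58206 (0.221 times) and 638466 (0.51 times), and its call was lost without any 1 of the 3 antibodies.

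In the chromosome 13 array the highest windows by the same mean kept most of their tags, which this ranking itself favours. The window chr13:67025001-67030000 held 76, 89, 85 and 88 tags with the Upstate-type antibody, 17 and 18 with lot 58206 and 22 and 31 with lot 638466, and was also among the 2 largest rises of the members changed the same way with every antibody (log2 change 0.22, SE 0.27, limma adjusted *P* = 0.893). The other of these 2, chr13:67195001-67200000, held 36, 48, 63 and 57, 12 and 13, and 21 and 23 (0.27, SE 0.30, limma adjusted *P* = 0.884). Neither passed the test. The window chr13:67030001-67035000 held 51, 57, 50 and 40, 58 and 93, and 26 and 33, without a common direction.

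In the chromosome 2 array the highest windows lay in 2 places and behaved differently. The window chr2:177300001-177305000 held 37, 18, 11 and 7 tags with the Upstate-type antibody, 33 and 9 with lot 58206 and 42 and 14 with lot 638466, a fall to 0.189, 0.273 and 0.333 times, but it averaged under 2 times the median and was not tested by limma. Its loss was visible at *T* = 2d. The windows chr2:177100001-177105000 (58, 76, 63 and 25, 26 and 13, and 31 and 28) and chr2:177105001-177110000 (27, 45, 41 and 31, 22 and 18, and 28 and 34) adjoin each other. The first had a log2 change of -0.68, SE 0.29, and a limma adjusted *P* of 0.353, and both were above *T* = 0 at *T* = 2d.

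Joined where neighbouring, the windows holding at least 3 times the Upstate-type *T* = 0 median made 27 runs of 465 kb in all on chromosome 4, 28 of 295 kb on chromosome 13 and 3 of 30 kb on chromosome 2. Since that library chose them, changes from it are given as description and tests only between other libraries. At *T* = 6d, 23 of the 27 runs on chromosome 4 had fewer tags with both Abcam lots and 0 had more with both. On chromosome 13, 12 of 28 had fewer with both and 2 had more with both, and on chromosome 2, 1 of 3 had fewer with both. Their tags summed to 0.579 and 0.713 times *T* = 0 with lots 58206 and 638466 on chromosome 4, to 0.834 and 0.875 times on chromosome 13 and to 0.571 and 0.816 times on chromosome 2. All windows of the genome chosen by the same limit summed to 0.828 and 0.802 times with these lots, so the runs on chromosome 13 lost no more than the genome's windows. Runs were not counted over the genome.

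The longest runs of the 3 arrays had 3 different courses. On chromosome 4 it was chr4:146820001-146875000 (55 kb), which contains the largest falls by limma, with 857, 948, 573 and 477 tags with the Upstate-type antibody. It fell from 715 to 357 tags with lot 58206 (0.499, 0.439 to 0.568, Fisher's exact adjusted *P* = 1.57e-27), from 781 to 446 with lot 638466 (0.571, 0.507 to 0.642) and to 0.503 times between *T* = 2d and *T* = 6d. On chromosome 13 it was chr13:67010001-67040000 (30 kb), with 292, 364, 315 and 314 tags, 155 and 164, and 151 and 158. The ratio between *T* = 6d and *T* = 0 was 1.06 (0.844 to 1.33) with lot 58206 and 1.05 (0.832 to 1.32) with lot 638466, so that no change was detectable at this depth. On chromosome 2 it was chr2:177095001-177110000 (15 kb), with 112, 166, 142 and 69 tags, 60 and 46, and 81 and 84, where the Upstate-type signal fell from *T* = 2d to *T* = 6d (0.416, 0.309 to 0.554, adjusted *P* = 4.76e-10) and the Abcam lots gave ratios of 0.767 (0.51 to 1.15) and 1.04 (0.755 to 1.43).

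**Figure D5:**
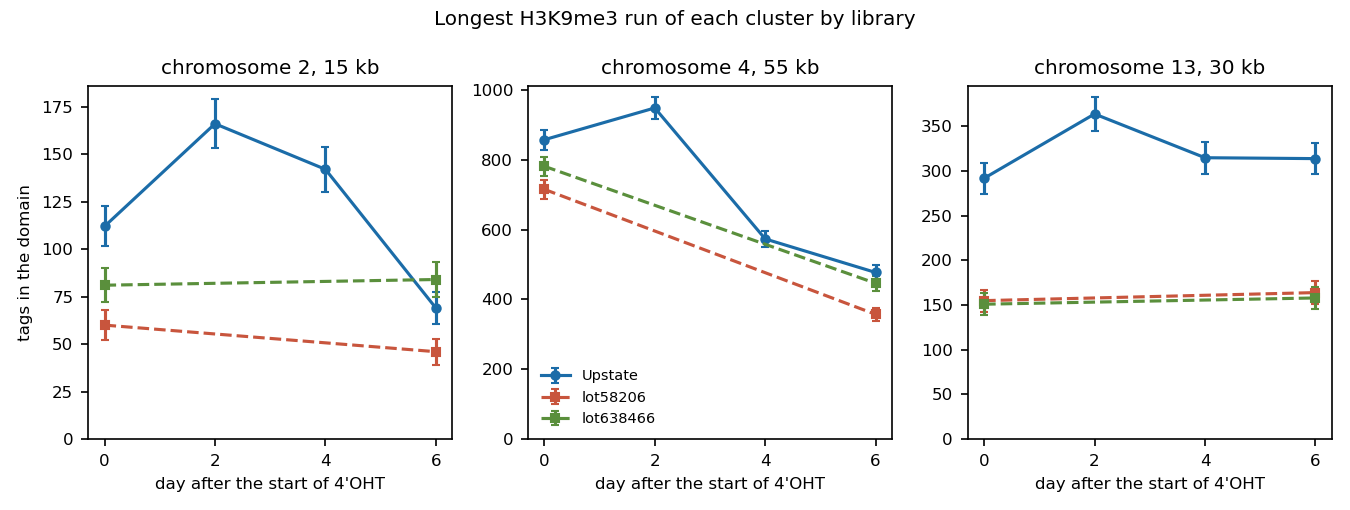
Tags (vertical axis) in the longest run of windows at 3 or more times the Upstate-type *T* = 0 median in each array by day after the start of 4′OHT (horizontal axis), with the Upstate-type antibody (blue), lot 58206 (red) and lot 638466 (green), and bars of the square root of the count. The 55-kb run of chromosome 4 fell with all 3 antibodies, from 857, 715 and 781 tags to 477, 357 and 446, and the 30-kb run of chromosome 13 did not.

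Other runs of the same arrays had other courses. Beyond the 55-kb run on chromosome 4, the next run, chr4:146880001-146905000, held 285, 313, 359 and 328 tags with the Upstate-type antibody, 250 and 171 with lot 58206 and 304 and 313 with lot 638466. After it, chr4:146910001-146945000 held 302, 440, 486 and 311 tags with the Upstate-type antibody and 226 and 196, and 296 and 220 with the Abcam lots, and chr4:146950001-146960000 held 110, 241, 289 and 189, with 60 and 30, and 65 and 55. The last of these was 2.63 times its *T* = 0 level at *T* = 4d with the Upstate-type antibody while both Abcam lots had fewer tags at *T* = 6d. On chromosome 13, chr13:67505001-67520000 held 172, 254, 168 and 60 tags with the Upstate-type antibody, 49 and 27 with lot 58206, and 61 and 75 with lot 638466. The run chr13:67310001-67320000 held 71, 36, 10 and 11 tags, 70 and 33, and 89 and 39, lower in every later library. These 5 runs were named after their values had been seen.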

How the data were processed

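H3K9me3 was measured by ChIP-seq in 8 libraries of 1 clonal background. The authors deposited, for each library, the positions of 300-bp tag intervals on mm9 without strand, value or header, brought to equal totals within an antibody and with no repeated start positions. The aligner is not given in the sources used here. From the deposited intervals, midpoints were counted in 5-kb windows over the autosomes and X, with no further scaling, and the 3 Mb on each side of an array was its flank. Gaps of 500 bp or more between pooled midpoints were taken as unmappable. Windows without any tag were left out.

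Tags were compared with 2-sided Fisher's exact tests in scipy 1.17.1, called at *P* below 0.01 and over 1.5-fold, with Benjamini-Hochberg adjustment over the tests of a family. Intervals are exact 95% intervals (odds ratios, log intervals) and cover counting error only. Windows were compared over antibodies in limma (version 3.58.1, run under R 4.3.3, with a trended variance prior) on log2(CPM + 0.5), over windows whose tags relative to the median averaged 2 or more. The antibodies gave the replicate numbers, and both libraries of an antibody deviated together (r = 0.876, 0.863 and 0.445), so the antibody was a term of the model. Fisher's and limma's calls were tested on simulated data. Sequences were from RefSeq, build GRCm38.p6, and figures from matplotlib 3.10.9.

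Named windows were, in each array, the 3 with the highest mean level, and over all arrays the 3 largest falls and 2 largest rises by limma among windows whose change had 1 direction in the 3 antibodies, and the longest run in each array. The remaining windows and runs were named after their values had been seen. The members and lists were chosen with earlier results of these data known. Alternatives tried were the scaling, flanks, window size, enrichment limit, pseudocount, filter and antibody left out.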

Additional observations from a re-analysis of the deposited data

Results flagged for a closer look

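With the Upstate-type antibody the change from *T* = 0 differed between *T* = 2d and *T* = 6d in all 3 arrays. The *T* = 6d library had 0.498 times the tags of the *T* = 2d library on chromosome 2, 0.696 times on chromosome 4 and 0.789 times on chromosome 13, with adjusted *P* values of 3e-40, 2.06e-101 and 6.26e-29 by Fisher's exact test. On chromosomes 4 and 13 the direction against *T* = 0 differed, 1.22 and 1.11 times at *T* = 2d and 0.85 and 0.873 times at *T* = 6d. Both time points share the *T* = 0 library, and neither has a replicate.

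The change of an array against its flanks differed between antibodies on chromosomes 2 and 4, by the difference of the log2 odds ratios over its standard error from the counts. On chromosome 2 the Upstate-type antibody was below lot 58206 by -0.52 (SE 0.11, adjusted *P* = 6.81e-06) and below lot 638466 by -0.75 (SE 0.11, adjusted *P* = 2.89e-12), and lot 58206 was below lot 638466 by -0.23 (SE 0.10, adjusted *P* = 0.0464). On chromosome 4 the Upstate-type antibody was above lot 58206 by 0.37 (SE 0.04, adjusted *P* = 8.8e-16), lot 58206 was below lot 638466 by -0.36 (SE 0.04, adjusted *P* = 7.26e-15), and the Upstate-type antibody and lot 638466 differed by 0.01 (SE 0.04, adjusted *P* = 0.752), a difference that was not shown. On chromosome 13 none of the 3 pairs passed an adjusted *P* of 0.05.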

How the results depend on the processing

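Depth limited single windows most on chromosome 2, whose windows held a median of 1 to 4 tags in a library. With tags scaled to the windows near background (factors of 0.957 to 1.09), chromosome 2 at *T* = 2d (1.03 times *T* = 0, also as the first step of the time course) and chromosome 13 at *T* = 4d (0.947) changed direction with the Upstate-type antibody, and the mean log2 change of chromosome 13 was -0.23. Against the left flank alone, chromosome 13 at *T* = 6d reversed (1.26, 1.08 and 1.06), against the right flank alone it reversed at *T* = 4d (0.934), and chromosome 4 with lot 58206 passed the 1.5-fold limit against the left flank (0.632) or in windows with 4 kb mappable (0.654). Array over flanks per mappable kb was 0.556 and 0.349 at *T* = 0 and 6d on chromosome 2 and 1.46 and 1.17 on chromosome 4. The cause of these changes was not tested. All 30 alternatives for the comparisons of arrays with each other left the calls as they were. They covered only tags placed by their start and the removal of windows above 20 times the median. That removal left the odds ratios of chromosome 2 to chromosome 13 unchanged, so these alternatives could show little. A limit on mappable length was not tried for these comparisons.

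Counts of called members are read against the members that entered and the share of the genome's windows called, given here in brackets. Among the 22 enriched members, 2, 5 and 7 were lower at *T* = 2d, 4d and 6d with the Upstate-type antibody (20.8, 44.1 and 50.4%) and 0 higher. In 2-kb windows 4, 19 and 18 of 67 were lower (7.26, 24.4 and 27.9%), and 3 and 1 higher at *T* = 2d and 4d (0.960 and 0.393%). In 10-kb windows 0 and 2 of 11 were lower at *T* = 2d and 4d (25.5 and 58.7%), and 1 of 74 higher with lot 58206 (5.53%). At 2 times the median 5, 14 and 15 of 52 were lower (7.35, 21.1 and 26.1%) and 7, 6 and 5 higher (1.90, 0.775 and 0.999%). At 5 times 1, 2 and 4 of 7 were lower (25.6, 49.6 and 54.9%), with 26 of 73 lower (8.67%) and 2 higher (2.64%) for lot 58206 and 12 of 73 lower (7.99%) for lot 638466. Without a limit 10, 37 and 59 of 701 were lower (0.792, 2.08 and 3.08%) and 29, 26 and 16 higher (0.800, 1.06 and 1.96%), with 11 higher for lot 58206 (1.75%) and 38 lower and 2 higher for lot 638466 (1.93 and 1.11%). By adjusted *P*, 2 of 158 were higher with lot 58206 (2.71%), and by background scaling 12 of 22 were lower at *T* = 6d (54.8%).

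The limma fit with the antibody as the block called 11 of 117 members lower (3.49% of all windows tested). Without the antibody block it called 0 (0.00467%), over windows averaging 1 times the median 26 of 302 (1.68%), and without the Upstate-type antibody, lot 58206 or lot 638466 it called 6, 7 and 5 of 117 (2.21, 2.70 and 1.97%). The change of chr13:67030001-67035000 ran from -0.02 to 0.46 without 1 antibody, and chr4:145660001-145665000 also lost its call with a pseudocount of 2 and over windows averaging 1 or 3 times the median, and kept it with the filter on summed tags. The mean log2 changes without 1 antibody ran from -0.76 to -0.47 on chromosome 2, -0.54 to -0.34 on chromosome 4 and -0.16 to -0.11 on chromosome 13.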
